A study of Acipenser baerii with 14 samples.

Results

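Parvalbumins are small cytosolic calcium-binding proteins, and this account follows every parvalbumin contig in a transcriptome of lateral line organs of the Siberian sturgeon (Acipenser baerii). A contig is an assembled transcript group, treated here as a gene. The members were all contigs whose Swiss-Prot protein name contains the word parvalbumin, whatever their gene symbol. There were 6 of them. The count table held 23448 genes and the annotation 22647 genes. All 6 members passed the filter on low counts, which left 21978 genes for testing.

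Parvalbumins bind calcium through paired helix-loop-helix motifs known as EF-hands. In fast skeletal muscle they take up calcium after each contraction and so speed relaxation, and in fish white muscle they are abundant enough to be the main fish allergen. In sensory hair cells they buffer the calcium that enters during stimulation and transmitter release: parvalbumin-3, first described as a thymic protein of the chicken and also called CPV3, is a well known calcium buffer of hair cells in frogs and birds, and its relative oncomodulin marks outer hair cells in mammals. Vertebrate parvalbumins fall into an alpha and a beta lineage, named by their sequence and not by their tissue.

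TRINITY_DN97159_c2_g2 was annotated as thymic CPV3 or parvalbumin-3 and is called parvalbumin-3 below. TRINITY_DN92601_c1_g3 was annotated as parvalbumin alpha with the symbol PVALB. TRINITY_DN91264_c0_g1 and TRINITY_DN109444_c1_g3 were both annotated as parvalbumin alpha of the A1 type and are called the DN91264 alpha contig and the c1_g3 alpha contig. TRINITY_DN88110_c0_g1 was annotated as thymic parvalbumin, the avian thymic hormone, and is called the thymic contig. TRINITY_DN109444_c1_g1 was annotated as parvalbumin beta, a fish allergen, and is called the beta contig. The names come from the best match in another species. The c1_g3 alpha contig and the beta contig carry the same Trinity cluster name, so the counting could have split reads between them, which was not tested.

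The study profiled ampullary organs (AO), the electrosensory organs of the head, and neuromasts (NM), the mechanosensory organs, in larvae of 10 days post hatching. Each was taken from untreated larvae and at 12 and 24 hours post treatment (hpt) after 1 h in 200 µM neomycin, an aminoglycoside antibiotic that kills hair cells, and general epithelium (EP) of the ventral trunk was taken from untreated larvae only. The organs came from the ventral head, so organ and body region cannot be told apart in any comparison with EP. Tissue of 15 larvae was pooled per group and each pool was split into 2 parts, so the 2 libraries of a group are parts of 1 pool. Untreated AO, NM and EP came from the same 15 larvae. AO and NM at 12 hpt shared another 15, and AO and NM at 24 hpt a further 15. The p-values measure the spread between parts of a pool and not between larvae. Each organ had 1 pool per time point, so an effect of neomycin cannot be told apart from a difference between pools or dissections.

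The 14 libraries held between 7121038 and 10067958 counts. Levels below are in CPM, the count scaled to the size of its library after edgeR's trimmed mean of M-values (TMM) correction. No contig lengths were used, so CPM values are compared between groups for 1 contig and not between contigs. A gene was called where its log2 fold change exceeded 1 in size and its false discovery rate (FDR), adjusted by Benjamini and Hochberg's procedure over all 21978 genes, was under 0.01 in the quasi-likelihood test of edgeR, and log2 fold changes are given ± SE. The exact permutation test of 2 against 2 libraries cannot go below p = 0.333 and was not used. In these bulk libraries fewer cells of a type and less RNA per cell cannot be told apart.

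The tissue labels were checked against marker lists. The hair cell list (60 tested contigs) summed to between 650 and 668 CPM in untreated AO, between 486 and 489 CPM in untreated NM and between 199 and 202 CPM in EP. Contig by contig, 29 were called higher and 0 lower in untreated AO than in EP (all genes 7.46% and 6.81%). In untreated NM 19 were called higher, 1 lower and 40 not called against EP (all genes 4.06% higher and 9.19% lower). The skeletal muscle list (123 tested contigs of 43 symbols) ran the other way: its summed level was between 54364 and 54716 CPM in EP, between 838 and 950 CPM in untreated AO and between 500 and 600 CPM in untreated NM. The EP libraries thus carried muscle transcripts at 4.56% to 4.65% of all counts, and so did several treated organ libraries at lower levels: between 9671 and 9972 CPM in AO at 12 hpt, between 22065 and 22874 CPM in AO at 24 hpt, between 16430 and 16631 CPM in NM at 12 hpt and between 1010 and 1051 CPM in NM at 24 hpt. Transcripts of red blood cells also varied, from 1595 CPM in an untreated NM library to 13115 CPM in an EP library.

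The 6 contigs fell into 1 contig that was high in the sensory organs and 5 that were high in EP. Parvalbumin-3 took between 86.6% and 95.5% of all parvalbumin counts in the untreated organ libraries and between 0.5586% and 0.6176% in EP. After neomycin its share was 29.5% and 29.7% in AO at 12 hpt, 10.3% and 11.3% in AO at 24 hpt and 17.0% and 18.2% in NM at 12 hpt, where the other 5 held most parvalbumin counts, and 81.6% and 79.8% in NM at 24 hpt. The shares are shares of reads and depend on contig length as well as on abundance. All parvalbumins together took between 0.164% and 0.194% of counts in untreated organs and between 0.797% and 0.805% in EP.

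**Figure D1:**
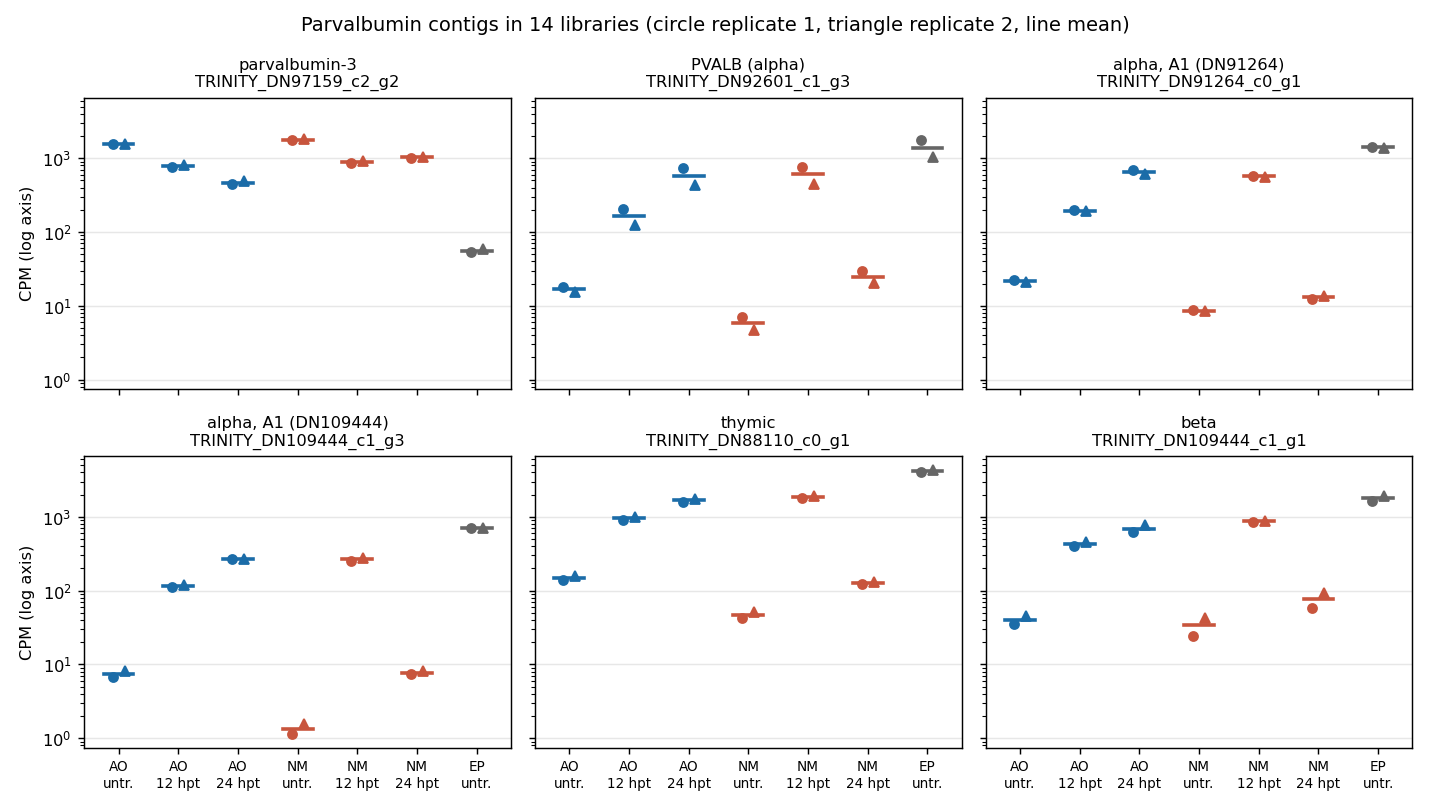
CPM (log axis) of the 6 parvalbumin contigs in the 7 groups. Circles are replicate 1, triangles replicate 2 and lines the mean of the 2 libraries. Parvalbumin-3 sits between 1554 and 1801 CPM in untreated organs and below 60 CPM in EP (53.4 and 58.2 CPM). By group mean the other 5 contigs are highest in EP and lowest in untreated NM.

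Parvalbumin-3 was the only member with a higher level in every organ group than in EP. Its CPM was 1554 and 1578 in the 2 untreated AO libraries and 1748 and 1801 in the 2 untreated NM libraries. It was 53.4 and 58.2 in the EP libraries, far below every organ library. After neomycin it was 760 and 800 in AO at 12 hpt and 449 and 485 in AO at 24 hpt. In NM it was 874 and 905 at 12 hpt and 1020 and 1047 at 24 hpt. The order from high to low was untreated NM, untreated AO, NM at 24 hpt, NM at 12 hpt, AO at 12 hpt, AO at 24 hpt and EP, and no neighbours in that order overlapped. The order follows the group means of 2 libraries each. The share of all genes without overlap between neighbours was not counted, so overlap is only described, here and for the contigs below. The highest of these group means was 31.8 times the lowest.

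Against EP, parvalbumin-3 was 28.0-fold higher in untreated AO (log2 fold change 4.81 ± 0.08, edgeR quasi-likelihood FDR = 1.61e-10) and 31.8-fold higher in untreated NM (4.99 ± 0.08, edgeR quasi-likelihood FDR = 9.97e-11). Few genes of the hair cell list differed as much: 57 of its 60 contigs had a smaller fold change than parvalbumin-3 between AO and EP, and all 60 had a smaller one between NM and EP. OTOF, which encodes the calcium sensor of transmitter release in hair cells, was 4.65 ± 0.19 higher in AO and 3.74 ± 0.19 higher in NM on the log2 scale. The treated organs also stayed above EP for parvalbumin-3, by 3.80 ± 0.08 in AO and 3.99 ± 0.08 in NM at 12 hpt and by 3.06 ± 0.08 in AO and 4.21 ± 0.08 in NM at 24 hpt. With the muscle list and the other 5 parvalbumins left out before scaling, an alternative added after the data were seen, the fold changes of untreated organs against EP were 4.802 in AO and 4.982 in NM. Muscle contigs without a listed symbol stayed in the totals.

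After neomycin, parvalbumin-3 fell in AO at both times, and in NM its level was below untreated at both times without passing the fold threshold. In AO it fell by 1.01 ± 0.07 at 12 hpt, a 2.01-fold decrease that lay at the fold threshold (edgeR quasi-likelihood FDR = 3.48e-06). Without replicate 2 of untreated AO the decrease was 0.995 and without replicate 1 of AO at 12 hpt it was 0.969, which is no longer a call. In AO at 24 hpt the level fell by 1.75 ± 0.07, a 3.35-fold decrease (edgeR quasi-likelihood FDR = 7.1e-08). In NM the log2 fold change at 12 hpt was -0.996 ± 0.069, just short of the fold threshold (edgeR quasi-likelihood FDR = 3.72e-06), and it passed without replicate 1 of AO at 24 hpt (-1.03), replicate 1 of untreated NM (-1.02) or replicate 2 of NM at 12 hpt (-1.02). In NM at 24 hpt it was -0.78 ± 0.07 (edgeR quasi-likelihood FDR = 6.7e-06), which missed the fold threshold. Both values at 12 hpt lay at the fold threshold, on either side of it.

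That difference was tested directly. The change of parvalbumin-3 at 12 hpt did not differ detectably between organs (AO minus NM -0.01 ± 0.10, edgeR quasi-likelihood FDR = 0.976). At 24 hpt the change in AO minus that in NM was -0.97 ± 0.10 on the log2 scale (edgeR quasi-likelihood FDR = 0.000124), short of the fold threshold, and without replicate 2 of AO at 24 hpt the difference was -1.02. From 12 to 24 hpt the log2 fold change was -0.74 ± 0.07 in AO (edgeR quasi-likelihood FDR = 0.000114) and 0.22 ± 0.07 in NM (edgeR quasi-likelihood FDR = 0.0294). Between the organs themselves, parvalbumin-3 differed by -0.18 ± 0.07 untreated (AO minus NM, edgeR quasi-likelihood FDR = 0.0767) and by -0.19 ± 0.07 at 12 hpt (edgeR quasi-likelihood FDR = 0.118). At 24 hpt it was 2.21-fold lower in AO than in NM (-1.15 ± 0.07, edgeR quasi-likelihood FDR = 2.46e-06).

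The summed level of the hair cell list was also lower in AO after neomycin, from 650 and 668 CPM untreated to 482 and 493 CPM at 12 hpt and 378 and 385 CPM at 24 hpt. In NM it was 486 and 489 CPM untreated, 463 and 466 CPM at 12 hpt and 515 and 530 CPM at 24 hpt. Contig by contig the list was mixed. In AO at 24 hpt, 7 of its 60 contigs were called higher and 16 lower than untreated, with a median log2 fold change of 0.04 beside a median of -0.00669 over all genes tested, of which 12.6% were called higher and 3.47% lower. In NM at 24 hpt, 20 were called higher and 1 lower (median 0.91, all genes -0.03, with 16.1% called higher and 5.01% lower). Of the 60 contigs, only 7 had a lower fold change than parvalbumin-3 in AO at 24 hpt and only 4 in NM at 24 hpt. OTOF fell by 2.11 ± 0.15 in AO at 24 hpt and had a log2 fold change of -0.22 ± 0.15 in NM at 24 hpt, and its response differed between organs by -1.89 ± 0.21 (edgeR quasi-likelihood FDR = 0.000223). MYO6, a myosin of hair cells and many other epithelia, was measured by 2 abundant contigs that were not called in any comparison. Relative to the summed hair cell list, parvalbumin-3 was at 2.33 and 2.43 in untreated AO, 1.58 and 1.62 at 12 hpt and 1.19 and 1.26 at 24 hpt. The same ratio was 3.60 and 3.69 in untreated NM, 1.89 and 1.94 at 12 hpt and 1.98 and 1.98 at 24 hpt, and 0.269 and 0.288 in EP. MYO6 counts in this sum, with 1 contig at a mean of 78.2 CPM in untreated AO, 95.7 in untreated NM and 67.9 in EP. The sum and the ratio are therefore not measures of hair cells alone.

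The genes most like parvalbumin-3 over the 14 libraries, by Pearson's r of log2(CPM + 1) among 15774 annotated genes, were SYNCRIP (r = 0.997), FNDC7 (0.993), TDRP (0.992), ZPLD1 (0.989) and FSCN2 (0.988). SYNCRIP encodes an RNA-binding protein, FNDC7 a fibronectin-domain protein, TDRP a protein named for testis development, ZPLD1 a zona pellucida-domain protein and FSCN2 an actin-bundling protein of photoreceptors and hair cells. These are descriptions over libraries that share pools and groups. SYNCRIP moved little, from a mean of 82.6 CPM in EP to 133 CPM in untreated NM. FNDC7 ranged from 4.42 CPM in EP to 94.3 CPM in untreated AO, and was at 37.1 CPM in AO and 71.0 CPM in NM at 24 hpt. ZPLD1 ranged from 13.6 CPM in EP to 391 CPM in untreated NM, with 104 CPM in AO and 247 CPM in NM at 24 hpt. The set depended on the measure: by Spearman's rho, 1 of the 5 genes was among the top 5.

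The thymic contig was the most abundant by reads of the other 5. It read 4002 and 4345 CPM in EP, 138 and 155 in untreated AO and 42.2 and 51.7 in untreated NM. In treated AO it read 902 and 999 at 12 hpt and 1595 and 1741 at 24 hpt. In treated NM it read 1805 and 1919 at 12 hpt and 122 and 129 at 24 hpt. Libraries of no 2 groups next to each other in rank overlapped, and NM at 12 hpt ranked second to EP.

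The beta contig read 1649 and 1893 CPM in EP, 34.8 and 44.8 in untreated AO and 24.3 and 43.1 in untreated NM. Untreated AO and untreated NM overlapped. The treated AO libraries read 400 and 458 CPM at 12 hpt and 623 and 761 CPM at 24 hpt. Treated NM read 859 and 870 CPM at 12 hpt and 58.8 and 94.0 CPM at 24 hpt. Replicate 2 was above replicate 1 in every group, most in untreated NM and in NM at 24 hpt and least in NM at 12 hpt.

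The DN91264 alpha contig read 1433 and 1396 CPM in EP, 22.5 and 21.2 in untreated AO and 8.69 and 8.55 in untreated NM. In AO it reached 196 and 195 CPM at 12 hpt and 691 and 606 CPM at 24 hpt. In NM it reached 580 and 563 CPM at 12 hpt and was at 12.5 and 13.7 CPM at 24 hpt. No neighbouring groups overlapped, and its replicates lay close together in every group.

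The c1_g3 alpha contig read 694 and 700 CPM in EP, 6.76 and 8.18 in untreated AO and 1.12 and 1.53 in untreated NM, where its lowest library held 7.9 expected counts. It read 113 and 120 CPM in AO at 12 hpt and 271 and 266 CPM in AO at 24 hpt. In NM it read 252 and 278 CPM at 12 hpt and 7.39 and 8.01 CPM at 24 hpt. Between its highest and lowest group means lay a factor of 525, more than for any other member, which ranged from 31.8 to 237. The AO libraries at 24 hpt overlapped those of NM at 12 hpt, and the NM libraries at 24 hpt overlapped those of untreated AO.

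PVALB, the alpha parvalbumin with a gene symbol, read 1742 and 1035 CPM in EP, 17.9 and 15.5 in untreated AO and 7.01 and 4.71 in untreated NM. In AO it read 205 and 123 CPM at 12 hpt and 738 and 428 CPM at 24 hpt. In NM it read 764 and 449 CPM at 12 hpt and 29.3 and 20.3 CPM at 24 hpt. Replicate 1 was above replicate 2 in every group, by 1.16-fold in untreated AO and by 1.44-fold to 1.72-fold in the other groups. Its SE was the largest of the 6 contigs in all 17 comparisons.

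Against EP, all 6 parvalbumins were called in untreated AO, where 14.3% of all tested genes were called, and all 6 in untreated NM, where 13.2% were. The 5 contigs other than parvalbumin-3 were lower in both organs. In AO their log2 fold changes ran from -4.83 ± 0.12 (thymic) to -6.54 ± 0.12 (c1_g3 alpha), between 28.5-fold and 93.2-fold lower. In NM they ran from -5.71 ± 0.32 (beta) to -8.996 ± 0.145 (c1_g3 alpha), between 52.2-fold and 511-fold lower. Over the same comparisons the muscle list had 111 of 123 contigs called lower in AO (median log2 fold change -6.12, all genes 0.09) and 113 called lower in NM (median -7.21, all genes -0.00105). With muscle contigs that were at 0 in a whole group set to the bound that 3 counts over the group allow, the muscle medians were -5.32 and -6.55. The part of muscle tissue in these 5 differences was not tested.

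The distance from EP in these 5 contigs was smaller in both organs at 12 hpt and in AO at 24 hpt than in the untreated organs, and remained large in NM at 24 hpt. In AO at 12 hpt all 6 parvalbumins were called against EP (18.3% of all genes called), the 5 contigs with log2 fold changes of -2.05 ± 0.26 (beta) to -3.08 ± 0.40 (PVALB). In AO at 24 hpt 5 of 6 were called (17.2% of all genes), the lower ones with -1.12 ± 0.08 (DN91264 alpha) to -1.37 ± 0.09 (c1_g3 alpha). PVALB had -1.25 ± 0.37 there and was not called, but was called in a fit with the replicate number as a block (edgeR quasi-likelihood FDR = 2.24e-07, with FDR values between 2.24e-07 and 0.167 over all alternatives). The beta contig was not called without replicate 1 of AO at 24 hpt (-1.26) or replicate 2 of EP (-1.25). In NM at 12 hpt 4 of 6 were called (10.5% of all genes), and the 5 contigs had log2 fold changes of -1.03 ± 0.26 (beta) to -1.40 ± 0.09 (c1_g3 alpha). The beta contig and PVALB were not called there. Over 22 alternatives the beta contig was called in 10 and PVALB in 3, both with the replicate block (-1.03 and -1.20). The 10 include the fits without either replicate of untreated NM or of NM at 24 hpt (-1.03 in each). In NM at 24 hpt all 6 were called (25% of all genes), the 5 contigs with log2 fold changes of -4.53 ± 0.30 (beta) to -6.75 ± 0.10 (DN91264 alpha).

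**Figure D2:**
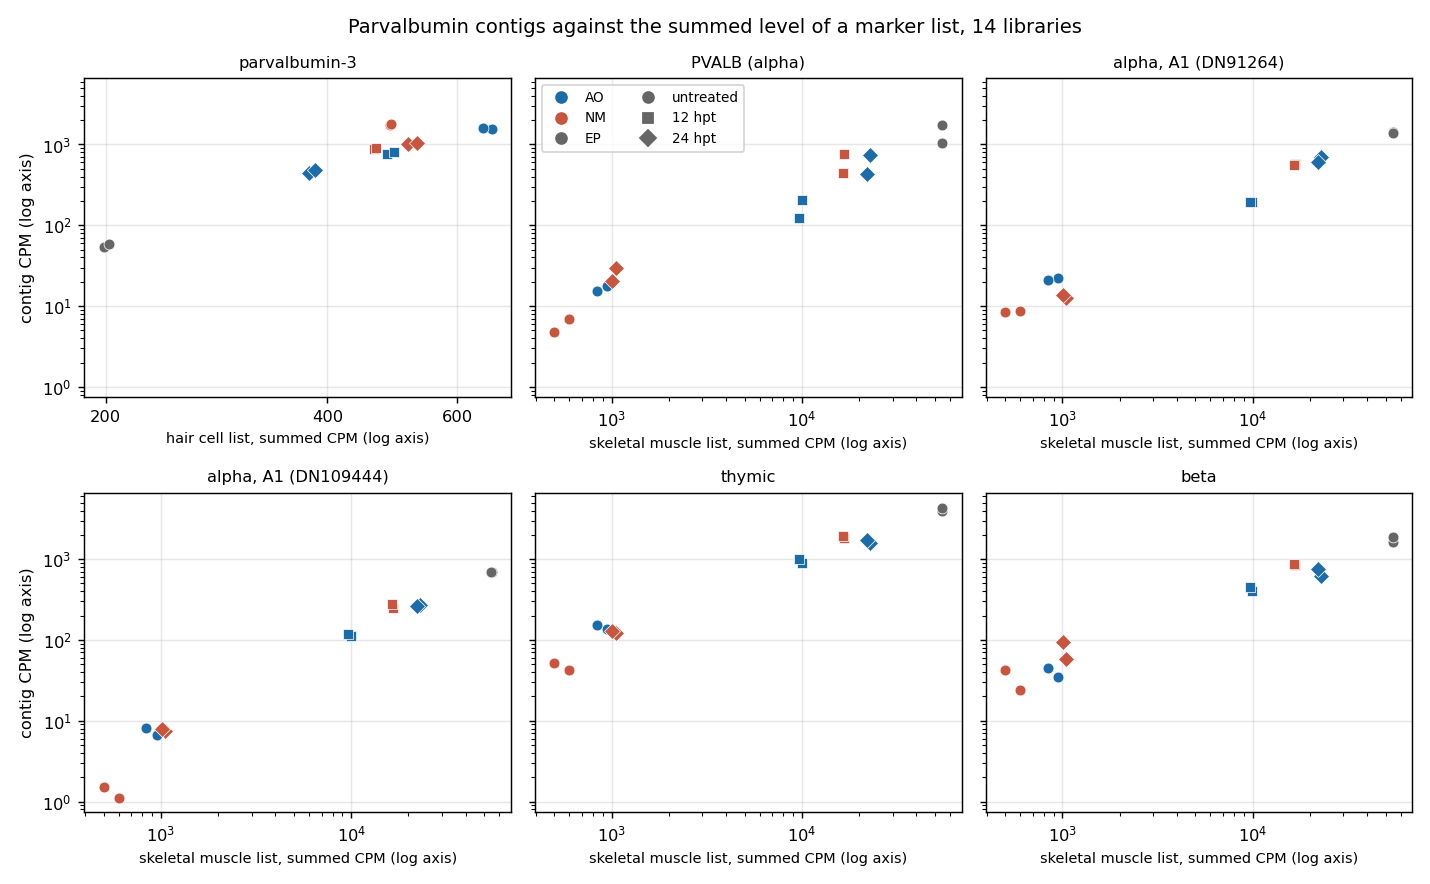
CPM of each parvalbumin contig (y, log axis) against the summed CPM of a marker list (x, log axis) in the 14 libraries, with colour for tissue and symbol for treatment. Parvalbumin-3 is set against the hair cell list (199 to 668 CPM) and the other 5 contigs against the skeletal muscle list (500 to 54716 CPM). By group mean all 5 are lowest in untreated NM, where that list is lowest, and highest in EP, where it is highest. For the beta contig the libraries of untreated AO and untreated NM overlap.

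Between the untreated organs, 3 of the 6 parvalbumins were called (6.02% of all genes called), all higher in AO. They were the c1_g3 alpha contig (2.45 ± 0.17, edgeR quasi-likelihood FDR = 1.4e-05), the thymic contig (1.64 ± 0.11, FDR = 1.29e-05 in the same test) and the DN91264 alpha contig (1.34 ± 0.10, FDR = 1.48e-05 in the same test). In a fit of only the groups compared, the c1_g3 alpha contig (2.38) and the DN91264 alpha contig (1.26) were not called. PVALB differed by 1.53 ± 0.50 and was not called, but was called in 3 of 22 alternatives, among them the replicate block (1.502). The beta contig differed by 0.23 ± 0.28 (edgeR quasi-likelihood FDR = 0.575), and without replicate 1 of untreated NM its value was -0.12. In the muscle list 17 of 123 contigs were called higher and 0 lower in AO (median 0.91, and 0.85 with contigs at their bound; all genes 0.13).

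At 12 hpt the fold changes of the 5 contigs were all negative, and at 24 hpt the 5 contigs were all higher in AO. The beta contig had no clear sign between the untreated organs (0.23 ± 0.28). At 12 hpt 2 of 6 were called (3.72% of all genes), both lower in AO: the DN91264 alpha contig (-1.55 ± 0.08) and the c1_g3 alpha contig (-1.19 ± 0.09). With a fit of only the groups compared neither was called. PVALB (-1.88 ± 0.38), the thymic contig (-0.97 ± 0.11) and the beta contig (-1.01 ± 0.26) were not called. PVALB and the beta contig were each called in 4 of 22 alternatives, among them the replicate block (-1.88 and -1.02). The thymic contig was called without replicate 2 of AO at 12 hpt (-1.05) or replicate 1 of NM at 12 hpt (-1.01). In the muscle list 17 of 123 contigs were called lower and 0 higher (median -0.51). At 24 hpt all 6 were called (3.49% of all genes), the 5 contigs higher in AO by 3.18 ± 0.28 (beta) to 5.63 ± 0.10 (DN91264 alpha), between 9.04-fold and 49.4-fold, and parvalbumin-3 lower. In the muscle list 97 of 123 contigs were called higher and 0 lower (median 4.45, and 4.2 with contigs at their bound).

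**Figure D3:**
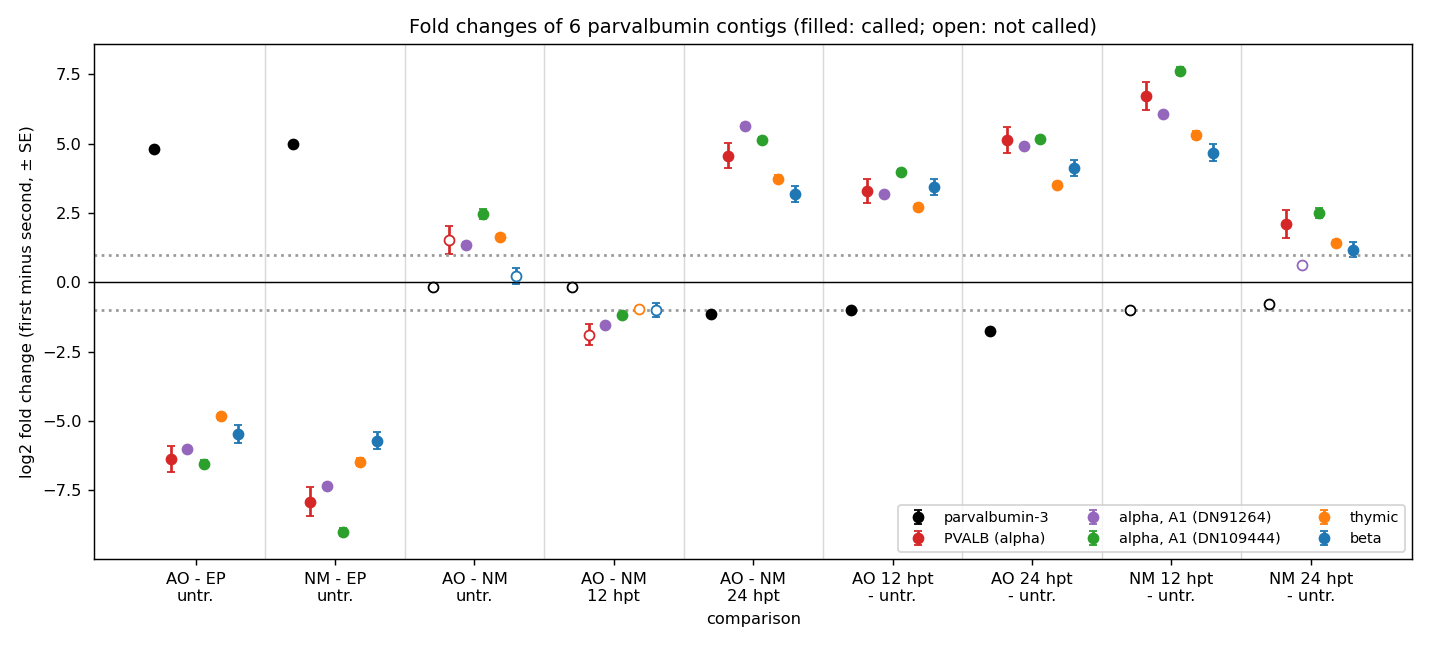
Log2 fold change ± SE (y) of the 6 contigs in 9 comparisons (x). Filled points were called (log2 fold change over 1 in size, FDR under 0.01) and open points were not, and dotted lines mark the fold threshold. Parvalbumin-3 has the opposite sign to the other 5 in both comparisons with EP (4.81 and 4.99) and in all 4 comparisons after neomycin.

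After neomycin the 5 contigs rose in both organs at 12 hpt, and at 24 hpt they were all above untreated levels in AO and much lower than at 12 hpt in NM. In AO at 12 hpt all 6 parvalbumins were called (12% of all genes called), the 5 contigs higher by 2.70 ± 0.11 (thymic) to 3.96 ± 0.11 (c1_g3 alpha), or 6.50-fold to 15.6-fold. In AO at 24 hpt all 6 were called (16% of all genes), the 5 higher by 3.51 ± 0.12 (thymic) to 5.17 ± 0.11 (c1_g3 alpha), or 11.4-fold to 36.0-fold. From 12 to 24 hpt in AO 2 of 6 were called (2.79% of all genes), the DN91264 alpha contig higher by 1.73 ± 0.08 and the c1_g3 alpha contig higher by 1.21 ± 0.09. PVALB (1.83 ± 0.38) was not called, but was called in 5 of 22 alternatives, among them the replicate block (1.82). The thymic contig (0.81 ± 0.11) and the beta contig (0.69 ± 0.26) were not called.

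In NM at 12 hpt 5 of 6 were called (12.4% of all genes), the 5 contigs higher by 4.67 ± 0.30 (beta) to 7.60 ± 0.14 (c1_g3 alpha), or 25.5-fold to 194-fold. In NM at 24 hpt 4 of 6 were called (21.2% of all genes): the c1_g3 alpha contig was higher by 2.502 ± 0.173, PVALB by 2.09 ± 0.50, the thymic contig by 1.42 ± 0.11 and the beta contig by 1.18 ± 0.28. The DN91264 alpha contig had a log2 fold change of 0.60 ± 0.10 and was not called. PVALB was not called without replicate 1 (2.38) or 2 (1.81) of untreated NM or replicate 1 of NM at 24 hpt (1.81), and the beta contig was not called without replicate 1 of untreated NM (0.83) or replicate 2 of NM at 24 hpt (0.79), nor in a fit of only the groups compared (1.24). From 12 to 24 hpt in NM 5 of 6 were called (15.3% of all genes), all lower at 24 hpt, with log2 fold changes of -3.497 ± 0.284 (beta) to -5.446 ± 0.095 (DN91264 alpha).

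The muscle list moved with the 5 contigs. It had 100 of 123 contigs called higher and 1 lower in AO at 12 hpt (median 3.60, and 3.23 with contigs at their bound) and 108 higher and 1 lower in AO at 24 hpt (median 5.09, and 4.18 at the bound). In NM it had 103 higher and 0 lower at 12 hpt (median 5.39, and 4.52 at the bound) and 38 higher and 0 lower at 24 hpt (median 1.25, and 1.08 at the bound). The medians over all genes in these 4 comparisons were between -0.0307 and 0.065, and between 9.84% and 16.1% of all genes were called higher. MYLPF, the regulatory light chain of fast muscle myosin, went from a mean of 66.9 CPM in untreated AO to 1753 CPM at 12 hpt and 4003 CPM at 24 hpt, and from 13.7 CPM in untreated NM to 4621 CPM at 12 hpt and 71.4 CPM at 24 hpt, with 10087 CPM in EP. ACTA1, skeletal muscle actin, went from 52.9 to 839 and 1876 CPM in AO and from 11.7 to 1128 and 50.9 CPM in NM, with 5393 CPM in EP. The part of muscle in the rises of the 5 parvalbumins was not tested. Red blood cell transcripts summed to between 4090 and 5661 CPM over all AO libraries, and in NM to 1595 and 1737 CPM untreated, 11407 and 11283 CPM at 12 hpt and 3412 and 3599 CPM at 24 hpt.

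**Figure D4:**
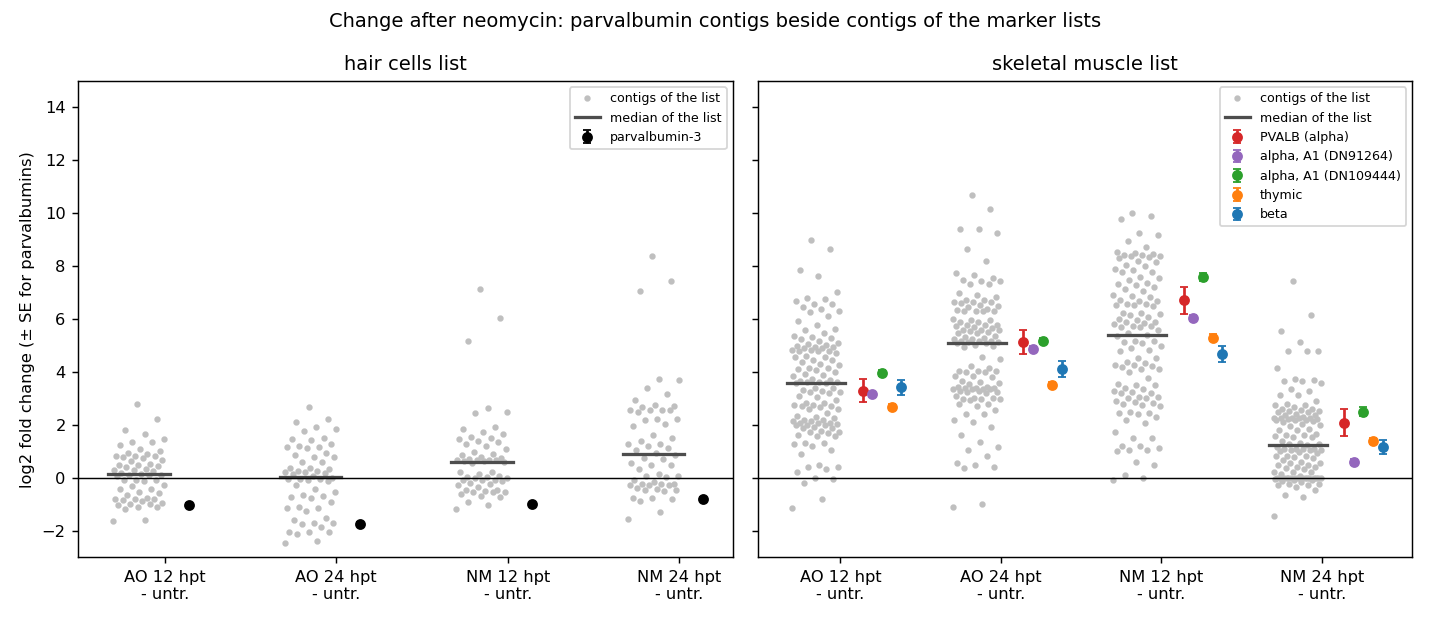
Log2 fold change after neomycin (y) in AO and NM at 12 and 24 hpt (x). Grey points are contigs of the hair cell list (left, 60) and of the skeletal muscle list (right, 123), dark lines their medians, and coloured points the parvalbumins ± SE. Parvalbumin-3 lies below the hair cell median in all 4 comparisons, and the 5 other parvalbumins lie within the range of the muscle contigs.

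The change from untreated differed between the organs for most of the 5 contigs. With 1 pool per organ and time, a response to neomycin cannot be told apart here from a difference between pools or dissections. The change in AO minus that in NM equals the AO minus NM difference at that time less the one between untreated organs. Between untreated organs it was 2.45 for the c1_g3 alpha contig, 1.64 for the thymic contig and 1.34 for the DN91264 alpha contig. At 12 hpt the change in AO minus that in NM was called for 3 of 6 parvalbumins (1.79% of all genes called), all in the negative direction: -3.64 ± 0.19 for the c1_g3 alpha contig (edgeR quasi-likelihood FDR = 9.22e-06), -2.89 ± 0.12 for the DN91264 alpha contig (FDR = 2.21e-06 in the same test) and -2.61 ± 0.16 for the thymic contig (FDR = 1.91e-05 in the same test). PVALB (-3.41 ± 0.63) and the beta contig (-1.24 ± 0.38) were not called, but both were called with the replicate block (-3.38 and -1.24). Over 21 alternatives PVALB was called in 3 and the beta contig in 1. At 24 hpt it was called for 5 of 6 (7.68% of all genes), all in the positive direction, from 2.09 ± 0.16 (thymic) to 4.29 ± 0.13 (DN91264 alpha). PVALB, at 3.03 ± 0.67, had an FDR of 0.00966 in edgeR's quasi-likelihood test and was not called when either replicate of untreated AO, AO at 12 hpt, untreated NM or NM at 24 hpt, or replicate 1 of AO at 24 hpt, was left out (values from 2.55 to 3.32). It was called in 10 of 21 alternatives, among them the replicate block (3.035). The muscle list had 19 of 123 contigs called lower and 0 higher at 12 hpt (median -1.44) and 41 called higher and 1 lower at 24 hpt (median 3.03).

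The 5 contigs did not keep 1 ratio to each other across the libraries. The c1_g3 alpha contig was at 0.0263 and 0.0288 of the thymic contig's counts in untreated NM, at 0.0488 and 0.0530 in untreated AO and at 0.161 to 0.173 in EP. The DN91264 alpha contig was at 0.102 and 0.106 of it in NM at 24 hpt, at 0.163 and 0.136 in untreated AO and at 0.358 and 0.321 in EP. The beta contig ran differently: it was at 0.574 and 0.831 of the thymic contig in untreated NM and at 0.253 and 0.289 in untreated AO, with 0.412 and 0.436 in EP. The thymic contig made up 62.7% and 63.4% of the counts of these 5 in untreated AO, against 42.0% and 46.4% in EP. Set against the summed muscle list, it stood at 14.5% and 18.5% in untreated AO and between 6.97% and 12.8% in all other libraries.

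By likeness over the 14 libraries, 5 nearest contigs were named for each of these 5, which makes 25 places. Contigs of the skeletal muscle list held 13 of these places: 5 of 5 for the c1_g3 alpha contig and the thymic contig, 2 for the beta contig, 1 for PVALB and 0 for the DN91264 alpha contig. The c1_g3 alpha contig and the thymic contig had the same 5 nearest contigs, which are counted for both. The list had 123 tested contigs, and 15774 annotated genes with a mean CPM of at least 5 were compared. How many of the 123 reached that level was not counted, so these numbers give no background share. The list was matched by gene symbol. Muscle contigs without a symbol, such as a skeletal troponin C, or with a symbol not listed, such as DES, were therefore not counted. The c1_g3 alpha contig was most like CKM, the creatine kinase of muscle (r = 0.999), and TNNT3, troponin T of fast muscle (0.999), followed by MYLPF, MYL3 and ACTA1 (0.996 to 0.998). The thymic contig was most like the same 5 contigs, with r between 0.995 and 0.998. The DN91264 alpha contig was most like TPM1, a tropomyosin (0.997), an unnamed skeletal troponin C (0.996), NEXN, KLHL31 and DES, the muscle intermediate filament desmin (0.995). PVALB was most like DUPD1, a phosphatase (0.989), an unnamed skeletal myosin light chain, KLHL41, CAVIN4A and ACTN3 (0.986 to 0.989). The beta contig was most like CASQ2, a calcium store protein of muscle (0.993), SLC25A4, MYOZ1, HACD1 and NUMB (0.989 to 0.992). By Spearman's rho between 0 and 2 of the 5 genes were shared with these lists.

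Other calcium-handling genes were counted by list. Of cytosolic EF-hand buffers and S100 proteins, 5 contigs were tested. CALB2, calretinin, another calcium buffer of hair cells and neurons, was at 287 CPM in untreated AO, 206 CPM in untreated NM and 283 CPM in EP and was not called in any comparison. CALB1, calbindin, was at 43.1 CPM in untreated AO, 19.6 CPM in untreated NM and 18.9 CPM in EP, and was called higher in AO than in EP (1.19 ± 0.12) and than in NM (1.14 ± 0.12). S100B, a calcium-binding protein of glia and other cells, rose in both organs, to 122 CPM in AO and 95.2 CPM in NM at 24 hpt from 17.4 and 7.47 CPM untreated (2.81 ± 0.07 and 3.67 ± 0.08), and was at 3.80 CPM in EP. None of these 3 fell with parvalbumin-3 by a call: in AO at 24 hpt the list had 1 contig called higher and 0 lower (median -0.31), beside 12.6% of all genes called higher and 3.47% lower. The lowest log2 fold changes in the list at 24 hpt were -2.63 in AO and -2.81 in NM, neither of them called.

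Of EF-hand calcium sensors, 10 of 28 tested contigs were called higher and 1 lower in AO at 24 hpt (median 0.84), and 14 higher and 1 lower in NM at 24 hpt (median 1.17). Over all genes tested, 12.6% were called higher and 3.47% lower in AO (median -0.00669) and 16.1% higher and 5.01% lower in NM (median -0.0307). The 3 most abundant by reads were PPP3R1, the regulatory subunit of calcineurin, SRI, sorcin, and VSNL1, a neuronal sensor. VSNL1 went from 14.8 to 124 CPM in AO and from 3.65 to 166 CPM in NM at 24 hpt, beside a neuron list whose summed level went from 378 and 406 to 1409 and 1462 CPM in AO and from 129 and 151 to 1747 and 1784 CPM in NM. The part of neurons in this was not tested. PPP3R1 ranged from 130.5 to 212 CPM and SRI from 152 to 179.7 CPM over the 7 groups.

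Of calcium pumps and exchangers, 28 of 51 tested contigs were called higher and 0 lower in AO at 24 hpt (median 1.38), and 31 higher and 0 lower in NM at 24 hpt (median 2.46), beside 12.6% and 16.1% of all genes called higher. The 3 most abundant contigs were all ATP2A1, the calcium pump of fast muscle sarcoplasmic reticulum, which is also in the muscle list. They were highest in EP (2659, 1806 and 1503 CPM) and low in untreated organs, the first of them at 11.2 CPM in AO and 1.85 CPM in NM. Without the 5 contigs shared with the muscle list, 24 of 46 were called higher and 0 lower in AO at 24 hpt and 28 higher and 0 lower in NM at 24 hpt.

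The 2 parts of a pool differed in a set direction for some members. The source names of replicates 1 and 2 end in different letters (l and s) in the labels, and what they stand for is not given in the sources used here, so the 2 libraries of a group may differ in more than the part of the pool. PVALB was 1.65-fold higher in replicate 1 than in replicate 2 over the 7 groups (log2 difference replicate 2 minus replicate 1 of -0.72 ± 0.04, edgeR quasi-likelihood FDR = 1.36e-05), and replicate 1 was higher in 7 of 7 groups. The beta contig was higher in replicate 2 in 7 of 7 groups (0.27 ± 0.07, edgeR quasi-likelihood FDR = 0.0331), as were the thymic contig (0.13 ± 0.02, FDR = 0.00461 in the same test) and parvalbumin-3 (0.06 ± 0.02, FDR = 0.0683 in the same test). Among all genes 1575, or 7.17%, had an FDR under 0.01 in this test, 534 had a larger absolute difference than PVALB, and 15.1% went 1 way in 7 of 7 groups.

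**Figure D5:**
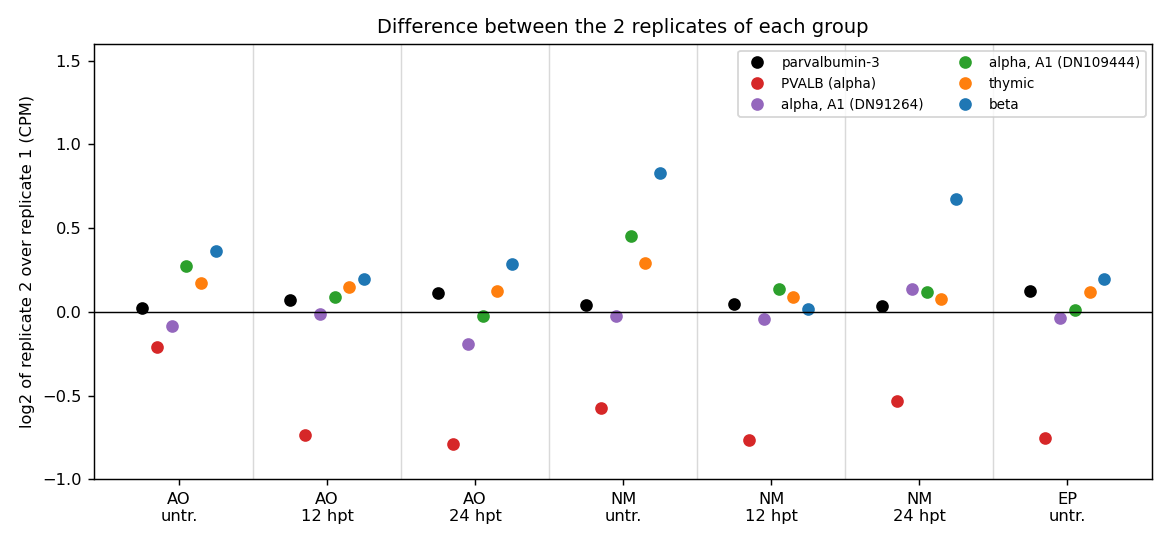
Log2 ratio of replicate 2 over replicate 1 (y, from CPM) in each of the 7 groups (x) for the 6 contigs. PVALB is below 0 in every group, from -0.79 to -0.21, and the beta contig is above 0 in every group, up to 0.83 in untreated NM.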

How the data were processed

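RNA of 14 libraries was sequenced. Per the methods and the submitters' processing notes (CASAVA 1.8.2, Trimmomatic 0.38, RSEM with no version given), the authors trimmed the reads, built 1 Trinity assembly from every library, retained the contigs matching a known protein and deposited RSEM expected counts per assembled gene, not scaled to library size. Of the values above 0, 99.03% were not whole (tolerance 0.005), so expected counts were rounded before fitting. Libraries held 7121038 to 10067958 counts.

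Counts were analysed in R 4.3.3 with edgeR 4.0.16 and limma 3.58.1. Genes were filtered with filterByExpr, scaled by TMM (factors 0.833 to 1.19) and fitted in 1 quasi-likelihood model of 7 groups over all 14 libraries (common biological coefficient of variation 0.121). The SE of a log2 fold change was its size divided by the square root of F. The members are all contigs with parvalbumin in the protein name. Members and marker lists were chosen with earlier results of these data known. Also named were the 5 genes most like each member (Pearson's r of log2(CPM + 1), mean CPM of at least 5) and the 3 most abundant contigs of each list (values are given for those the results use). The alternatives were DESeq2 1.42.0, its size factors, edgeR's exact test as the study used, a fit of only the groups compared and 2 other filters. Further ones were FDR under 0.05, a replicate block and each library left out. Totals without the muscle list and the other 5 parvalbumins were added after seeing the data.

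The sample titles number the libraries. Same-numbered libraries deviated together from their group means in 21 of 21 pairs of groups (correlation 0.125 to 0.232, minimum 0.1). The main fit did not use the numbers. They entered only the replicate block and the test of replicate 2 against replicate 1. Replicates differed by more than counting noise (chi-square per degree of freedom 7.56 to 11.4). The procedure was tested on simulated data of 21978 genes: for untreated AO against NM it recovered 94 of 100 genes changed by 2 and 97 of 100 changed by 3 on the log2 scale, with 1 false call. For AO at 12 hpt against untreated it recovered 95 and 99 of 100, with 3 false calls, and for the difference in response at 24 hpt 83 and 94 of 100, with 1 false call. The simulated counts were drawn independently, without a replicate effect, and only the changed genes differed between groups. No change as small as the fold threshold was simulated. The changed genes were drawn only from those above a minimum mean CPM, so recovery at lower levels was not measured. No contig sequence was used here.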

Additional observations from a re-analysis of the deposited data

Results flagged for a closer look

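The change after neomycin differed between AO and NM for several parvalbumins, by the test of the difference itself (change in AO minus change in NM, log2 scale, quasi-likelihood test of edgeR, FDR by Benjamini and Hochberg's procedure). At 12 hpt the differences were -2.89 for the DN91264 alpha contig (FDR = 2.21e-06), -3.64 for the c1_g3 alpha contig (FDR = 9.22e-06) and -2.61 for the thymic contig (FDR = 1.91e-05). At 24 hpt they were 3.03 for PVALB (FDR = 0.00966), 4.29 for the DN91264 alpha contig (FDR = 4.98e-08), 2.67 for the c1_g3 alpha contig (FDR = 7.51e-05), 2.09 for the thymic contig (FDR = 2.01e-05) and 2.94 for the beta contig (FDR = 0.000609). Parvalbumin-3 differed at 24 hpt by -0.966 (FDR = 0.000124), short of the fold threshold. For the 5 contigs other than parvalbumin-3 the sign turned between 12 and 24 hpt, although the difference at 12 hpt was not called for PVALB or the beta contig. The summed muscle list was higher in NM than in AO at 12 hpt and higher in AO than in NM at 24 hpt. Its part in these differences was not tested. With 1 pool per organ and time, neomycin, pool and dissection cannot be told apart in them. Each of them also contains the AO minus NM difference between the untreated organs.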

How the results depend on the processing

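Most fold changes kept their direction and side of the thresholds under the alternatives (2170 pairs of a contig's fold change and a setting, against 46 that gained a call, 25 that lost one and 8 uncalled values that changed sign). The FDR limit of 0.05 reused the main fold changes. For a comparison of 2 groups most libraries left out lay outside it, so many of these pairs had little room to change. Parvalbumin-3 in NM at 12 hpt passed the fold threshold with DESeq2's size factors (-1.035), the fit of only the groups compared (-1.032), the exact test (-1.032) and DESeq2 (-1.038), and leaving out a library gave -1.034 to -0.973. Its decrease in AO at 12 hpt ranged from -1.044 to -0.969 and its difference in response at 24 hpt from -1.022 to -0.943 without 1 library. Its difference in response at 12 hpt, which was not called, changed sign with DESeq2's size factors (0.0258), the fit of the groups compared (0.0221) and DESeq2 (0.0277), and ranged from -0.0457 to 0.0276 without 1 library. The beta contig between untreated organs ranged from -0.115 to 0.713. With the replicate block 4 contigs, and not 2, were called between organs at 12 hpt and 5, and not 3, for the difference in response at 12 hpt, and the block changed no call other than those given with the results. Between organs at 12 hpt 4 were also called with DESeq2, the exact test and FDR under 0.05, and 0 with the fit of only the groups compared, which called 1 between untreated organs. The shares of all genes called under the alternatives were not counted, so these counts of parvalbumins have no background beside them. In NM at 24 hpt 2 were called without replicate 1 of untreated NM, and between 2 and 4 over all libraries left out in turn. PVALB's difference in response at 24 hpt was not called with DESeq2's size factors or without a filter (FDR = 0.0101 in each, edgeR's quasi-likelihood test). The causes of these changes were not tested. The c1_g3 alpha contig, with 7.9 expected counts in its lowest library, is the member most limited by depth.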
